A study of Oryza sativa Japonica Group with 4 samples.

Results

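The genes described here make the plant hormone gibberellin (CPS1, GA20OX1, GA20OX2, GA3OX2), perceive it (GID1, GID2) or repress its response (the DELLA-type genes SLR1 and SLRL1). They were chosen as the probe sets that the platform annotation pairs with exactly 1 gene whose symbol or RefSeq synonym equals 1 of these 8 names. Of the 8 names, 6 matched, with 7 probe sets for 6 genes, of 57258 probe sets and 17905 genes paired alone with a probe set, and GA20OX1 and GA3OX2 are not analysed here. The study measured expression in rice lamina joints, where the leaf blade bends away from the sheath, at the tillering stage, by hybridising total RNA to the Affymetrix Rice Genome Array. Wild-type plants were of the japonica cultivar Zhonghua11, called ZH11 (2 arrays). The other group was the mutant ila1 (2 arrays), which has a wider leaf angle and is affected in a Raf-like kinase. The comparison asks which lamina joint transcripts differ between the mutant and ZH11. The labels name 1 mutant line and call the arrays biological replicates, without saying how many plants each came from, so the spread behind each p-value is that between these arrays and may be technical.

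Gibberellin is built from a plastid diterpene. CPS1 and the kaurene synthase KS1 close its rings, the oxidases KO2 and KAO oxidise the product, and GA20-oxidases and GA3-oxidases carry out the last steps to the active hormone. In rice the active hormone binds the soluble receptor GID1, the complex binds the DELLA protein SLR1, and the F-box protein GID2 then marks SLR1 for degradation, which releases growth. The pathway is best known in rice for stem and leaf elongation, and DELLA proteins restrain it.

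SLRL1, a rice relative of SLR1 whose protein lacks the DELLA motif, and GA20OX2, the GA20-oxidase altered in semi-dwarf rice cultivars, were lower in ila1. SLRL1 was 2.41-fold and GA20OX2 1.83-fold lower. CPS1, GID1 and SLR1 read lower on both ila1 arrays than on both ZH11 arrays but did not pass the test, and the signals of the probe set paired with GID2 overlapped between the genotypes. No member passed the test as higher (4.71% of all probe sets tested did). Of 6 tested members, 2 passed limma's test at an adjusted p under 0.05, against 15.1% of all 34355 probe sets tested in either direction and 10.4% as lower. In 5 of the 6, both ila1 arrays lay below both ZH11 arrays, which held for 40.6% of all probe sets tested. The members' median log2 fold change was -0.79, against -0.07 over all probe sets tested. These are bulk samples, in which fewer cells of a type and less RNA per cell cannot be told apart.

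Levels are linear signals as deposited, and fold changes and standard errors (SE) are on the log2(signal + 16) scale, which understates changes of low signals. The ZH11 arrays had median signals of 56.0 and 57.9 and the ila1 arrays of 53.6 and 53.6, and having only 4 arrays limits how precise each value is. No probe set is paired with ILA1 in the gene tables used here, so the mutation itself was not checked. Markers of the lamina joint region were present. LG1, a factor needed to form the ligule and lamina joint, read 312 and 340 in ZH11 against 318 and 234 in ila1. BU1, a brassinosteroid-responsive factor of the joint, read 188 and 208 against 140 and 184. None of the 3 tested lamina joint markers passed the test. All 3 had negative log2 fold changes (median -0.28), as did 20063 of all 34355 probe sets tested. In 2 of the 3 the genotypes did not overlap (both ila1 arrays lay below both ZH11 arrays for 40.6% of all probe sets tested). Their summed signal was 636 and 684 in ZH11 against 581 and 493 in ila1. Of the shoot meristem genes, OSH1 read between 24.3 and 31.7, under the signal of 39.6 below which probe sets were not tested, while FON1, a receptor kinase gene that limits floral meristem size, read 297 and 273 in ZH11 against 437 and 281 in ila1 and did not pass (log2 fold change 0.29, limma adjusted p = 0.414). The ratio of 3′ to 5′ signal for rice actin was 7.77 and 8.75 in ZH11 against 9.19 and 9.83 in ila1. The same ratio overlapped between genotypes for gapdh (1.71 and 2.51 against 2.14 and 2.45) and for ef1a (0.259 and 0.431 against 0.305 and 0.406). The part of RNA quality in the results was not tested.

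**Figure D1:**
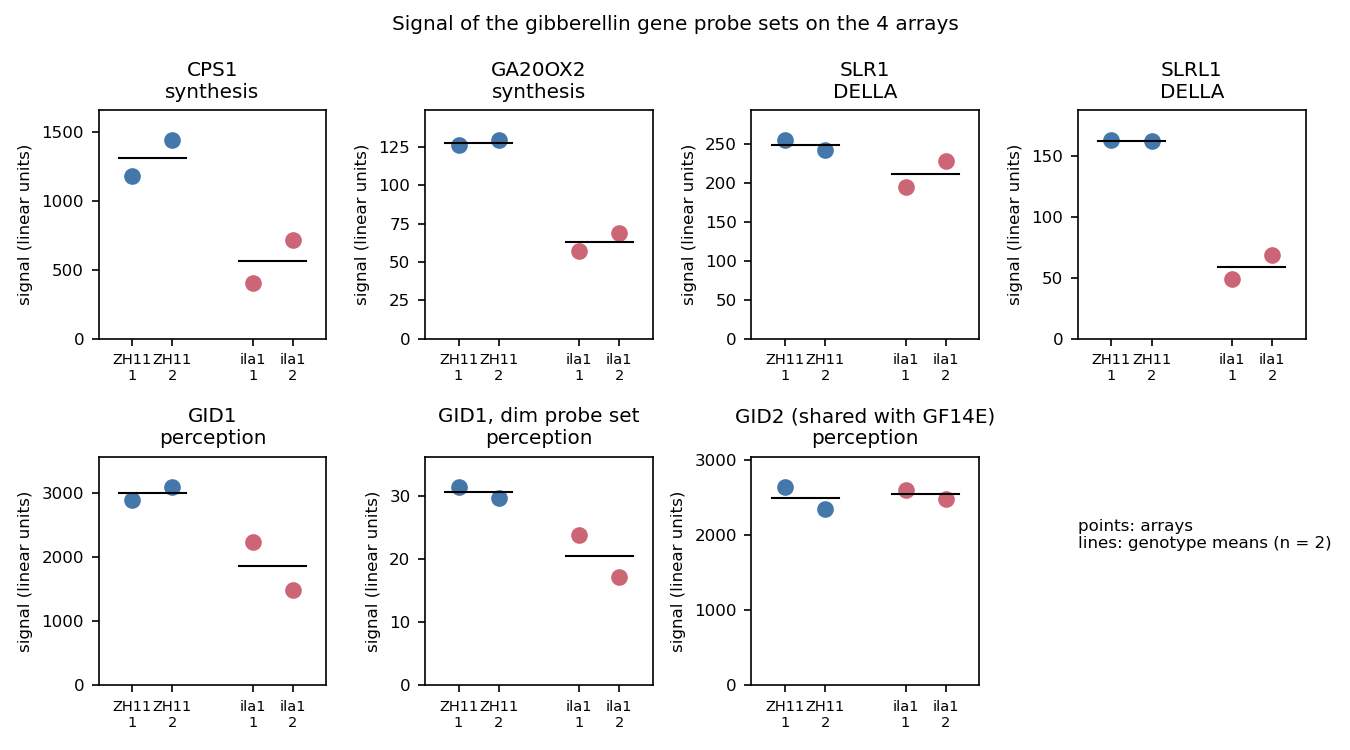
Linear signal (vertical axes, each from 0) of the 7 probe sets on the 2 ZH11 and 2 ila1 arrays; points are arrays and lines are genotype means. Both ila1 points lie below both ZH11 points in every panel but that of the probe set shared by GID2 and GF14E.

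Synthesis starts with CPS1, the ent-copalyl diphosphate synthase of the gibberellin branch. It read 1184 and 1444 in ZH11 against 407 and 715 in ila1. The groups did not overlap, and ila1 replicate 1 was the lowest. The difference was 2.38-fold (log2 fold change -1.25 ± 0.29 SE) and missed the threshold (limma adjusted p = 0.0509), with a 95% interval from -1.998 to -0.50. It lay just past the threshold with a pseudocount of 64 (log2 fold change -1.18, limma adjusted p = 0.0490, where 15.1% of all probe sets passed) and with no filter on low values (limma adjusted p = 0.0467, where 9.32% passed). It read -0.86 when ila1 replicate 1 was left out and -1.65 when ila1 replicate 2 was. With a single ila1 array in these fits, only the ZH11 pair informs the spread.

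GA20OX2, which makes the direct precursors of active gibberellin, read 126 and 130 in ZH11 against 57.1 and 68.8 in ila1. Replicates lay close together within each genotype, and the groups were well apart. Mean signal fell from 128 ± 2.50 to 62.9 ± 8.29 (SD over 2 arrays each), a log2 fold change of -0.87 ± 0.13 SE (limma adjusted p = 0.0166). Its call held under the 3 other scalings of the arrays, at log2 fold changes of -0.80 to -0.68. It was lost without ZH11 replicate 1 (-0.89, limma adjusted p = 0.137) and without ZH11 replicate 2 (-0.85, limma adjusted p = 0.153), where 0.0640% and 0.332% of all probe sets tested passed.

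For perception, the receptor gene GID1 has 2 probe sets. The brighter read 2904 and 3107 in ZH11 against 2231 and 1490 in ila1. Here ila1 replicate 2 was the lower, the opposite order to CPS1. The difference was 1.64-fold (log2 fold change -0.72 ± 0.21 SE) and did not pass (limma adjusted p = 0.0825). The value was -1.004 with ila1 replicate 1 left out and -0.43 with ila1 replicate 2 left out. The dim probe set of GID1 read 31.5 and 29.7 in ZH11 against 23.8 and 17.2 in ila1. It was not tested for its low signal, and with no filter on low values it did not pass (log2 fold change -0.36, limma adjusted p = 0.120).

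The probe set that the rule assigned to GID2 is paired with a gene that carries the names GF14E and GID2. GF14E is a 14-3-3 protein, not an F-box protein. In the RefSeq annotation a second gene is named GID2 alone, its span lies inside that of the first, and no probe set is paired with it, so it is unsettled which of the transcripts was read. The probe set read 2644 and 2345 in ZH11 against 2599 and 2479 in ila1. The groups overlapped. The log2 fold change was 0.03 ± 0.11 SE (limma adjusted p = 0.869), with a 95% interval from -0.25 to 0.30.

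Of the DELLA-type genes, SLR1, the DELLA protein of rice, read 255 and 242 in ZH11 against 195 and 228 in ila1. The groups did not overlap but lay close together. The log2 fold change was -0.22 ± 0.14 SE, with a 95% interval from -0.58 to 0.14 (limma adjusted p = 0.311), and it was -0.02 with arrays scaled to hybridization controls.

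SLRL1 read 163 and 162 in ZH11 against 49.4 and 68.4 in ila1. The ZH11 arrays were almost equal, and both ila1 arrays lay far below them. Mean signal fell from 163 ± 0.665 to 58.9 ± 13.4 (SD over 2 arrays each), a log2 fold change of -1.27 ± 0.16 SE (limma adjusted p = 0.0119). All 6 tested members were above the limit for testing on each array, the lowest being SLRL1 at 49.4, so neither SLRL1 nor GA20OX2 entered the test through ZH11 alone. The SLRL1 call held under the 3 other scalings, at log2 fold changes of -1.20 to -1.08. It was lost without ZH11 replicate 1 (-1.27, limma adjusted p = 0.110) and without ZH11 replicate 2 (-1.27, limma adjusted p = 0.111).

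The median log2 fold change of all probe sets tested was -0.07 as deposited and -0.01 once arrays were centred on their medians. It was 0.03 under quantile normalization and 0.12 when the hybridization controls set the scale. All calls split into 3572 lower and 1619 higher as deposited, into 3066 and 2083 with centred arrays, into 2863 and 2926 under quantile normalization, and into 2381 and 3344 on the control scale. Relative to that median, over the 4 scalings, SLRL1 lay between -1.23 and -1.19, CPS1 between -1.18 and -1.09, and GA20OX2 between -0.83 and -0.80. GID1 lay between -0.64 and -0.49, SLR1 between -0.18 and -0.13, and the GID2/GF14E probe set between 0.10 and 0.26.

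The contrast of synthesis with perception and DELLA genes was made within arrays, where the scaling of an array cancels. For each of 10 pairs of members, the difference between their log2 fold changes was taken, and its range over the 4 pairings of an ila1 with a ZH11 array is given. With 2 arrays a genotype, an exact two-sided permutation test cannot give a p under 0.333 (0.476 after Benjamini-Hochberg adjustment over the 10 pairs), so no difference between members could pass this test, and no model-based test of these differences was run. They are given as values. CPS1 minus SLR1 was -1.03 (range -1.50 to -0.56, below 0 in 4 of 4 array pairs). GA20OX2 differed from SLR1 by -0.65 (range -0.70 to -0.59). Against the GID2/GF14E probe set the differences were -1.28 for CPS1 and -0.90 for GA20OX2, below 0 in all 4 array pairs for each.

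Against the receptor GID1 the synthesis genes did not separate. CPS1 differed from GID1 by -0.54 (range -1.31 to 0.24) and GA20OX2 by -0.15 (range -0.58 to 0.27), each below 0 in 2 of 4 array pairs. The DELLA-type genes lay apart from each other: SLRL1 minus SLR1 was -1.05 (range -1.16 to -0.94). SLRL1 lay close to CPS1 (CPS1 minus SLRL1 was 0.02, range -0.34 to 0.37) but below GA20OX2 in all 4 array pairs (GA20OX2 minus SLRL1 was 0.40, range 0.30 to 0.50). By calls, 1 of 2 synthesis members, 1 of 2 DELLA-type members and 0 of 2 perception members passed, and the difference between roles was not tested.

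**Figure D2:**
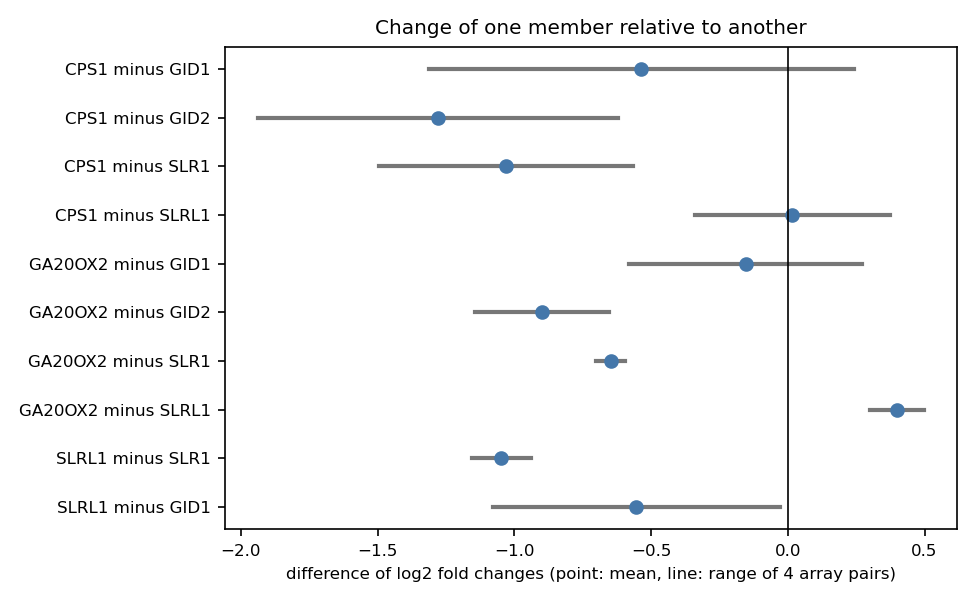
Difference between the log2 fold changes of 2 members (horizontal axis, log2 units); points are means and lines the range over the 4 pairings of an ila1 with a ZH11 array. The lines of CPS1, GA20OX2 and SLRL1 against SLR1 stay below 0, while those of CPS1 and GA20OX2 against GID1 cross it.

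The rest of the pathway was described from a list of synthesis, inactivation, perception, repressor, transcription factor and response genes. Besides the members, 22 of its genes had a probe set and 14 were tested. By the brightest probe set of each, 1 of these 14 was lower (AMY3D, dim in ila1), 0 were higher and 13 did not pass. Of all probe sets tested, 15.1% passed in either direction. The median log2 fold change of the 14 was -0.30 against -0.07 over all probe sets tested. No GA2-oxidase name matched, and EUI1, a P450 that inactivates gibberellin, read 31.9 to 42.7 and was too dim to test.

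All 7 tested genes listed under synthesis, members included, had negative log2 fold changes, as did 20063 of all 34355 probe sets tested. The median of the 7 was -0.87, and in 5 of them both ila1 arrays lay below both ZH11 arrays (40.6% of all probe sets tested). Of the 7, only GA20OX2 passed by its brightest probe set. They include the gene matched as KO1, which RefSeq also gives a kaurene oxidase-like name. KO2, the kaurene oxidase of gibberellin synthesis, read 1009 and 1178 in ZH11 against 461 and 747 in ila1 (log2 fold change -0.87 ± 0.25 SE, limma adjusted p = 0.0814). Its second probe set, at 369 and 362 against 181 and 224, did pass (log2 fold change -0.81 ± 0.15 SE, limma adjusted p = 0.0300). The names of both KO2 probe sets mark possible cross-hybridisation, and RefSeq gives this gene names of neighbouring kaurene oxidase-like genes too.

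GA20OX3, another GA20-oxidase, read 633 and 684 in ZH11 against 242 and 466 in ila1 (log2 fold change -0.94 ± 0.31 SE, limma adjusted p = 0.110). KS1, the kaurene synthase, read 393 and 424 against 341 and 303 (-0.33 ± 0.13 SE, limma adjusted p = 0.153). The name of the KS1 probe set marks possible cross-hybridisation. KAO, the kaurenoic acid oxidase, overlapped between genotypes, at 217 and 271 against 123 and 304. The gene matched as KO1 overlapped too, at 671 and 376 against 156 and 383. RefSeq also calls this gene CYP701A8 and OsKOL4, a kaurene oxidase-like name, so its place in gibberellin synthesis is not settled here.

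By the brightest probe set of each gene, the only call among the pathway genes that are not members was AMY3D. It is an alpha-amylase gene of rice known above all for its response to sugar supply. It read 174 and 222 in ZH11 against 35.8 and 18.6 in ila1, a log2 fold change of -2.33 ± 0.24 SE (limma adjusted p = 0.00699). Both ila1 signals were under the limit for testing, so AMY3D entered the test through ZH11 and the size of its change is poorly fixed. Its second probe set, at 52.7 and 53.0 against 19.2 and 23.5, was too dim to test and had a log2 fold change of -0.89 (limma adjusted p = 0.00693 with no filter on low values). Its call was lost without ZH11 replicate 1 (limma adjusted p = 0.0658) and without ZH11 replicate 2 (limma adjusted p = 0.0771). The 4 other amylase genes were too dim to test.

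GAMYB, a MYB factor that activates amylase genes in the cereal aleurone, was the tested pathway gene with the highest log2 fold change as deposited. It read 130 and 116 in ZH11 against 203 and 173 in ila1 (0.55 ± 0.14 SE) and did not pass (limma adjusted p = 0.0653). It passed as higher after quantile normalization (0.62, limma adjusted p = 0.0455) and on the scale of the hybridization controls (0.75, limma adjusted p = 0.0409). The name of the only GAMYB probe set marks possible cross-hybridisation. SPY, a repressor of gibberellin response, read 819 and 883 against 720 and 638 (-0.32 ± 0.13 SE, limma adjusted p = 0.151). RGA1, the G protein alpha subunit behind the dwarf mutant d1, overlapped between genotypes, at 809 and 655 against 710 and 652 (-0.10 ± 0.15 SE, limma adjusted p = 0.678).

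**Figure D3:**
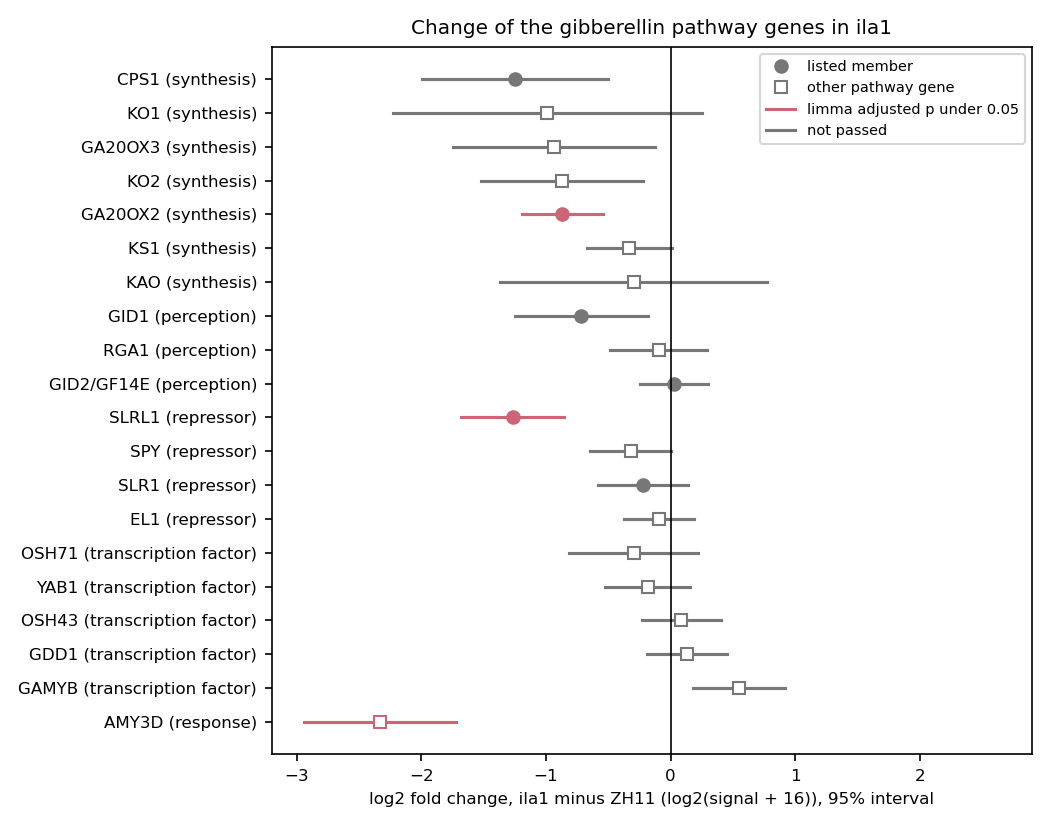
Log2 fold change (ila1 minus ZH11) of the 20 tested pathway genes with its 95% interval from limma, grouped by role; circles are the members, squares other genes, and red marks a limma adjusted p under 0.05. Each gene is shown by its brightest probe set. The genes listed under synthesis, KO1 included, all lie left of 0, and GA20OX2, SLRL1 and AMY3D passed.

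The ila1 arrays differed from each other in the 7 tested genes listed under synthesis, KO1 included. In 6 of the 7, KS1 being the exception, signal was lower on ila1 replicate 1 than on ila1 replicate 2, with a median log2 difference of -0.79. Over all 34355 probe sets tested 16838 were lower on ila1 replicate 1, and the typical distance between these arrays, as a median of absolute log2 differences, was 0.177. CPS1 was 1.73-fold, GA20OX3 1.87-fold and KAO 2.31-fold higher on ila1 replicate 2 than on replicate 1, while GA20OX2 differed by 1.16-fold and SLRL1 by 1.29-fold.

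Markers of leaf blade mesophyll moved the same way between the ila1 arrays. All 5 tested mesophyll markers were lower on ila1 replicate 1 than on ila1 replicate 2, with a median log2 difference of -1.19, and none passed between genotypes. They were also lower on ZH11 replicate 1 than on ZH11 replicate 2, by less, at log2 differences of -0.03 (PORB) to -0.35 (RCA). The summed signal of the 6 mesophyll genes with a probe set was 21484 and 22932 on the ZH11 arrays, 15238 on ila1 replicate 1 and 26478 on ila1 replicate 2. None was listed at 0, the lowest being RBCS1 at 6.78 to 9.71. PORA, an enzyme of chlorophyll synthesis, read 421 and 466 in ZH11 against 76.5 and 336 in ila1. The summed signal of 6 genes of dividing cells was 723 and 740 in ZH11 against 914 and 819 in ila1, most of it PCNA. PCNA read 564 and 587 in ZH11 against 771 and 683 in ila1 and did not pass (limma adjusted p = 0.142). Of the 3 tested genes of dividing cells, 2 had negative log2 fold changes and none passed. On ila1 replicate 2 the mesophyll markers did not all lie on one side of ZH11. RCA, the activase of Rubisco, read 5058 there against 2307 and 2950 in ZH11, while the light-harvesting gene CAB2R read 9277 against 9498 and 10034, and PORA also lay below both ZH11 arrays. The part of mesophyll, dividing or lamina joint cells in the members' differences was not tested.

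**Figure D4:**
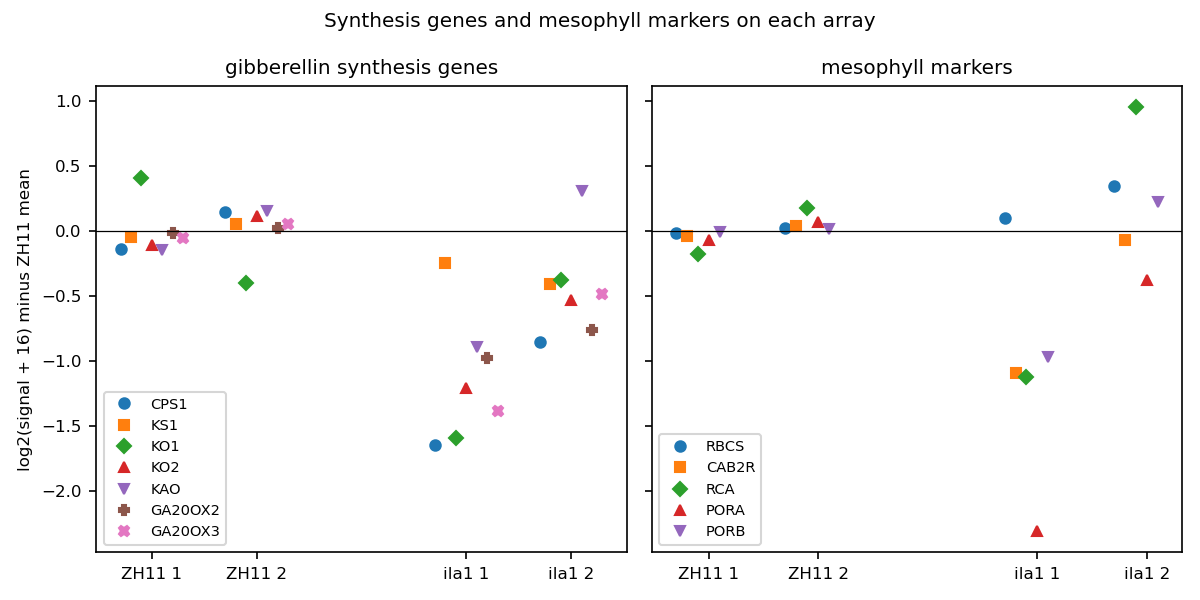
Log2(signal + 16) minus the ZH11 mean (vertical axis) on each array. Shown are the 7 tested genes listed under gibberellin synthesis, KO1 included (left), and the 5 tested mesophyll markers (right). In both panels most genes are lowest on ila1 replicate 1. Every synthesis gene but KAO lies below 0 on both ila1 arrays, as do the mesophyll markers CAB2R and PORA.

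GA20OX2 and SLRL1 were each called in 10 of the 12 alternative settings and CPS1 in 5, and the share of all probe sets that passed moved with the setting. That share was 16.9% under quantile normalization, 15.0% with centred arrays, 16.7% on the control scale, 15.0% with a pseudocount of 1, 15.2% with no trend and 14.0% with the replicate number as a block. It was 30.7% without ila1 replicate 1 and 43.1% without ila1 replicate 2, where CPS1 and GID1 passed as well. SLR1 and the GID2/GF14E probe set passed in none of the 12.

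**Figure D5:**
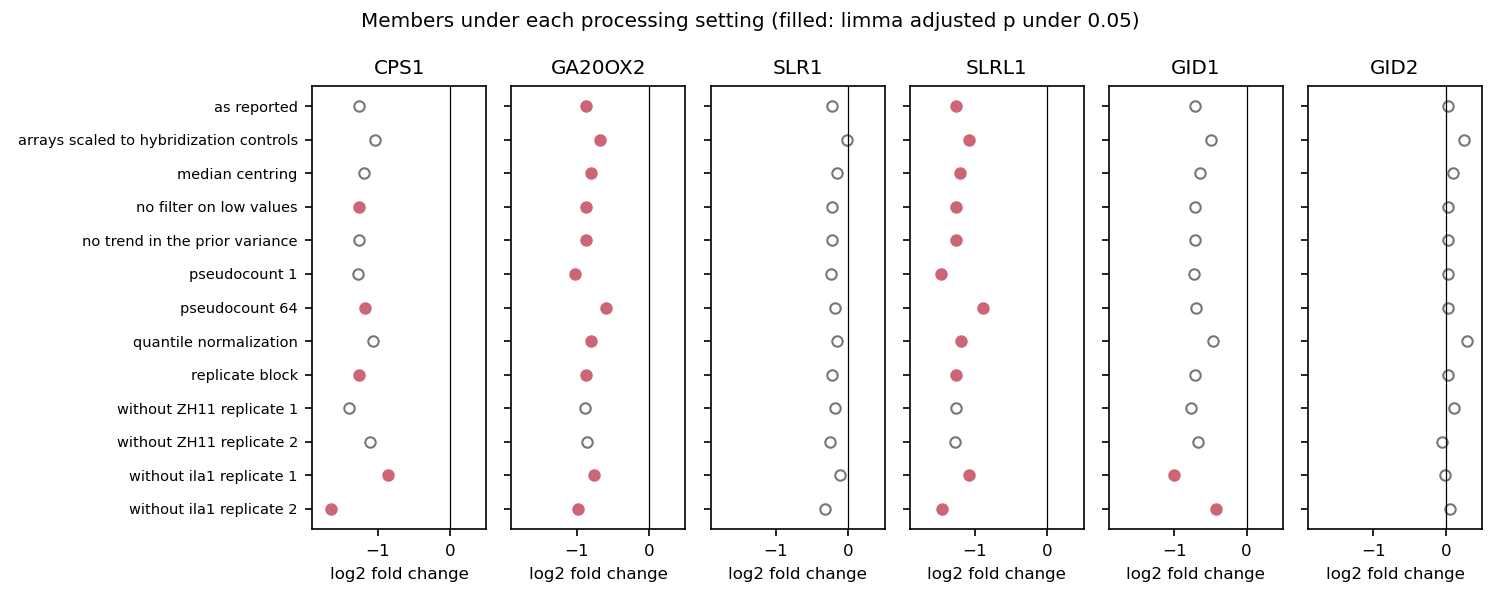
Log2 fold change (horizontal axes) of the 6 tested members under each processing setting (rows); filled red points passed at a limma adjusted p under 0.05. GA20OX2 and SLRL1 passed in all but the fits without a ZH11 array, and CPS1 stayed between -1.65 and -0.86 on either side of the threshold.

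The patterns most like those of the called members were looked up among 2660 tested probe sets of genes with a name, by Euclidean distance between log2 values over the 4 arrays, each probe set centred on its mean. Nearest to GA20OX2 were IAA23, an Aux/IAA gene of auxin response (distance 0.041), and SWEET1A, of the SWEET family of sugar transporters (0.051). IAA23 read 220 and 230 in ZH11 against 107 and 130 in ila1. Nearest to SLRL1 were C3H33, a zinc finger gene (0.095), and CPK1, a calcium-dependent protein kinase (0.113). CPK1 read 3298 and 3331 in ZH11 against 1316 and 1558 in ila1. These distances describe 4 arrays of 2 genotypes. The names of the IAA23 and C3H33 probe sets mark possible cross-hybridisation.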

How the data were processed

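The authors deposited linear intensities, 1 for each of 57381 probe sets on each of 4 arrays. TRIzol RNA was made into biotinylated cRNA, per the labels' protocols. How scans became intensities, and whether arrays were scaled to each other, is not stated in those sources. The 123 Affymetrix control probe sets were left out, 16 was added, log2 was taken, and the dimmest 40% by mean log2 value were set aside, so that 34355 were tested. The genotypes were then compared with limma 3.58.1 in R 4.3.3 (two-sided moderated test with genotype as the sole term and a prior variance that follows mean signal), with Benjamini-Hochberg adjustment and a threshold of 0.05. The fit has 2 residual degrees of freedom and a prior worth 2.91. It was also run on simulated data with independent noise and few changed probe sets, which does not show how it performs on these arrays. Exact permutation tests used scipy 1.17.1.

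The platform annotation pairs 22436 probe sets with 1 gene. Names come from the RefSeq gene table of assembly ASM3414082v1, used for names and neighbouring genes only. A gene with several probe sets is represented by the brightest. The names of those used for OSH1 and RCA mark possible cross-hybridisation. All members are named, with, of the other pathway genes, those that passed and the smallest unadjusted p of each role. GA20OX3, KS1, KAO, KO1, EUI1 and the markers LG1, BU1, OSH1, FON1, PORA, RCA, CAB2R, RBCS1 and PCNA are outside that rule and were named after their values were seen. For each called member, the 2 nearest named genes are given. Members and lists were chosen with earlier results of these data known. Alternatives were 3 other scalings, pseudocounts of 1 and 64, no filter, no trend, the replicate number as a block, each array left out, and the mean of a gene's probe sets.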

Additional observations from a re-analysis of the deposited data

How the results depend on the processing

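GA20OX2 and SLRL1 kept direction and call under the 3 other scalings, both pseudocounts, no filter, no trend, the replicate block and without either ila1 array, and lost the call without either ZH11 array. The 4 fits that leave out 1 array called 0 to 4 member probe sets instead of 2, 0 to 7 other pathway genes instead of 1, and 22 to 14800 probe sets in all instead of 5191. Each takes its spread from the group that keeps both arrays. The other pathway genes had 2 calls under quantile normalization and on the control scale (GAMYB joining as higher). The replicate block, for replicate numbers that the labels do not tie to a shared batch and whose deviations correlated at 0.10, gave 3 member calls (CPS1 joining, limma adjusted p = 0.0232), 2 calls among the other pathway genes (KO2 joining) and 4816 in all. The GID2/GF14E probe set lay between -0.0584 (without ZH11 replicate 2) and 0.114 with 1 array left out, turning to lower there and to -0.006 without ila1 replicate 1. RGA1 turned to 0.120 on the control scale, 0.094 under quantile normalization and 0.053 without ZH11 replicate 1, was -0.245 without ZH11 replicate 2, and passed in none of these. The cause of these changes was not tested.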
